A study of Mus musculus with 22 samples.

Results

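The comparison described here set the hypothalamus of mice given the solvent dimethyl sulfoxide (DMSO) alone for 4 days against that of mice given DMSO alone for 6 h. It used 8 of the 22 arrays of a study of celastrol, a plant triterpenoid, chosen by their labels: 4 arrays labelled DMSO 4 days and 4 labelled DMSO 6 h. All mice were lean C57BL/6J males, 8 weeks old, fed normal chow for 2 weeks and injected into the peritoneum with DMSO at 25 µl per day. The other 14 arrays were DMSO at 1 day and celastrol at 6 h (250 µg/kg), 1 day and 4 days (given as 100 µl in 25 µl of DMSO per day, with no dose by weight). Celastrol at 4 days (3 arrays) and at 6 h (4 arrays) served below as a second comparison of these times. It shares no array with the DMSO comparison, but its dose label differs between the times. Total RNA was measured on Affymetrix whole-transcript arrays, and every value below is a deposited log2 value or a difference between log2 values. The labels call the arrays biological replicates and do not say whether a sample came from 1 mouse. They give no untreated group, no hour of the day and no array batch or scan date, so days of injection, days of age, hour of sampling and batch cannot be told apart.

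DMSO is the vehicle in which poorly soluble compounds such as celastrol are injected, so its groups carry the handling, the needle and the solvent but not the compound. The hypothalamus gathers hormonal and nervous signals and adjusts feeding, body temperature, water balance, the pituitary and the daily rhythm through neurons that release peptides such as orexin, melanin-concentrating hormone, oxytocin and vasopressin. Handling and injection are known to raise corticosterone and to induce glucocorticoid targets and immediate early genes within hours, and clock genes follow the hour at which tissue is taken.

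The 8 arrays carried the hypothalamic peptide genes at high levels. Hcrt, which encodes orexin, read 13.04, 12.83, 12.70 and 12.83 at 4 days, against 12.94, 12.76, 12.65 and 12.78 at 6 h. Pmch, which encodes melanin-concentrating hormone, averaged 12.89 ± 0.105 at 4 days and 12.91 ± 0.110 at 6 h (SD, n = 4 each). Oxt (oxytocin) averaged 12.26 at 4 days and 12.07 at 6 h, and Avp (vasopressin) 11.39 and 11.49 at the same times. The array medians lay between 8.58 and 8.62, so these genes stood well above the middle of the array in both groups. Within each group the arrays correlated on average at 0.995 at 4 days and at 0.991 to 0.993 at 6 h.

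Few genes passed the test between the groups, and their differences were small. Of 9880 genes tested, 25 passed at an adjusted p under 0.05 in limma's moderated test with Benjamini-Hochberg adjustment (0.253%), 12 higher and 13 lower at 4 days. The differences of these 25 genes were between 0.18 and 0.43 on the log2 scale in size, and the lowest adjusted p was 0.00803. Among all tested genes the median difference was 0.03, and 1507 had an unadjusted p under 0.05, of which 1135 were higher and 372 lower at 4 days, where about 494 would be reached by chance. In 24 of the 25 called genes all 4 arrays at 4 days lay on the same side of all 4 arrays at 6 h, which was true of 747 tested genes in all (7.56%). The exception is H2-Ke6. After each array was centred on its median, 25 genes passed, 9 higher and 16 lower, and after a further quantile normalization 37 passed, 9 higher and 28 lower, so the balance of directions depends on the scaling.

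Direction went with the length of a gene on the genome. In RefSeq's build GRCm38.p6, which gave a span to 9871 of the 9880 tested genes, the median span was 48.93 kb for the 12 higher genes, 9.706 kb for the 13 lower genes and 27.61 kb for all tested genes. Among the 2468 tested genes with the longest spans 391 were higher and 29 lower at an unadjusted p under 0.05, against 177 higher and 185 lower among the 2468 with the shortest. Across genes, which are not independent of each other, span and the log2 difference had a Spearman correlation of 0.25 with DMSO and 0.19 with celastrol. The part of gene span, or of RNA quality, in the calls was not tested.

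**Figure D1:**
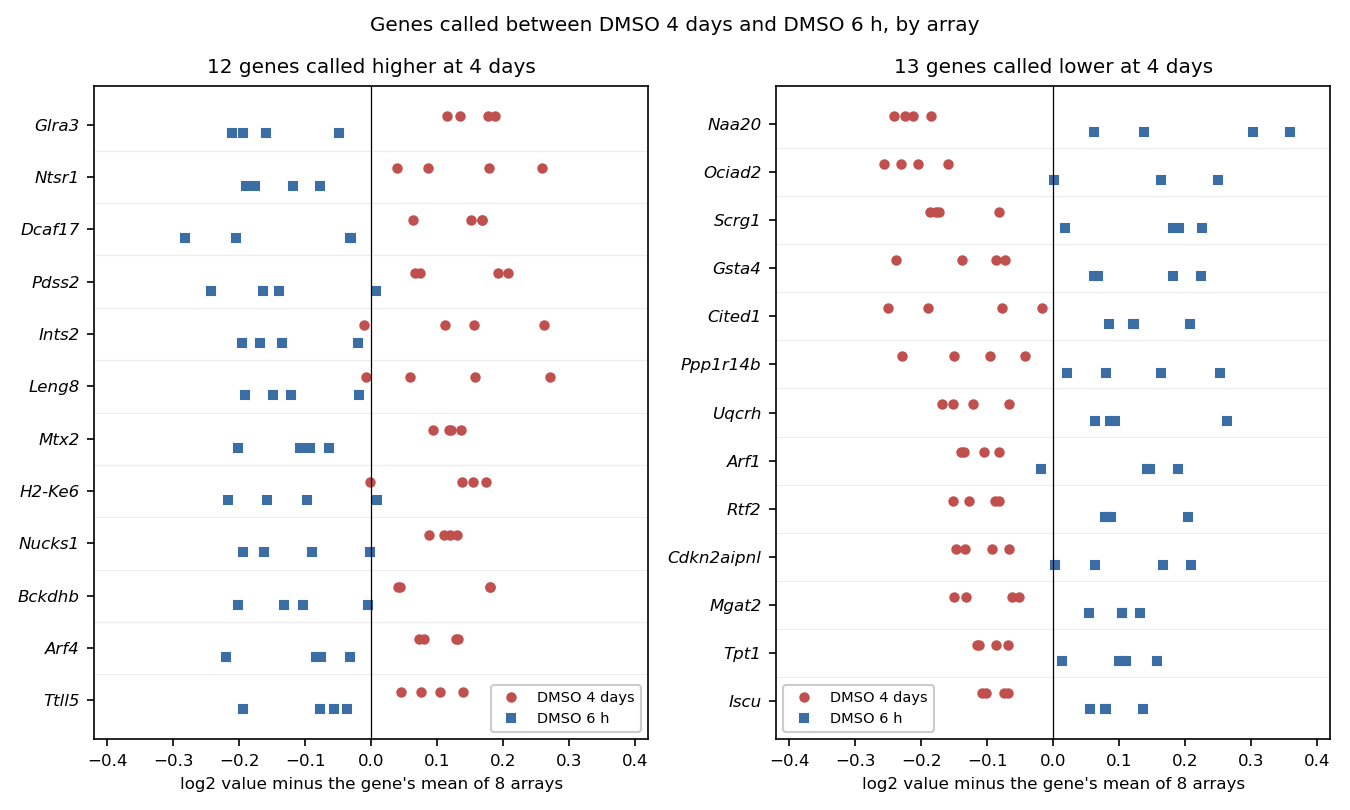
Values of the 25 called genes in the 8 arrays, each gene drawn as its log2 value minus its mean over the 8 arrays (horizontal axis); circles are DMSO 4 days, squares DMSO 6 h, and genes run down the page by the size of their difference. In the left panel the 12 higher genes and in the right panel the 13 lower genes are shown, and only for H2-Ke6 do the groups overlap.

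Genes lower at 4 days were led by Naa20, the catalytic subunit of the NatB complex that acetylates protein N termini, and by Ociad2, a membrane protein of mitochondria and endosomes. Naa20 read 10.43, 10.46, 10.40 and 10.42 at 4 days, against 11.003, 10.95, 10.71 and 10.78 at 6 h. The 4 values at 4 days were nearly equal and all lay below those at 6 h, where the spread was wider. The difference was -0.43 (95% interval -0.56 to -0.30, adjusted p = 0.00803), or 0.742 times the level at 6 h. Ociad2 read 10.32, 10.22, 10.27 and 10.25 at 4 days, against 10.73, 10.91, 10.48 and 10.64 at 6 h, a difference of -0.43 (95% interval -0.60 to -0.26, adjusted p = 0.0335). It was again the 6 h arrays that differed most among themselves.

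Scrg1, a small secreted protein first found in scrapie-infected brain, fell by 0.31 (adjusted p = 0.0473), with 10.39, 10.48, 10.38 and 10.39 at 4 days, against 10.75, 10.59, 10.76 and 10.79 at 6 h. Cited1, a coactivator of transcription, fell by 0.27 (adjusted p = 0.0473). Gsta4, the glutathione transferase that clears lipid peroxidation products such as 4-hydroxynonenal, also fell by 0.27 (adjusted p = 0.0335), with a mean of 10.30 ± 0.075 at 4 days and 10.57 ± 0.082 at 6 h (SD, n = 4 each). Ppp1r14b, an inhibitor of protein phosphatase 1, fell by 0.26 (adjusted p = 0.0433).

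Uqcrh, the hinge subunit of respiratory complex III, read 11.73, 11.78, 11.68 and 11.70 at 4 days, against 11.94, 12.11, 11.91 and 11.94 at 6 h. Its difference was -0.25 (adjusted p = 0.0433), and every value at 4 days lay below every value at 6 h. Iscu, the scaffold on which iron-sulfur clusters are built, read 11.96, 11.99, 11.99 and 11.95 at 4 days, against 12.14, 12.20, 12.12 and 12.14 at 6 h, and fell by 0.18 (adjusted p = 0.0335). Every value of Iscu at 4 days also lay below every value at 6 h.

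Genes of the Golgi were called in both directions. Arf1, the small GTPase that brings the COPI coat to the Golgi, read 13.36, 13.36, 13.41 and 13.39 at 4 days, against 13.64, 13.64, 13.48 and 13.69 at 6 h, a difference of -0.23 (adjusted p = 0.0335). Mgat2, which adds a branch to N-glycans in the Golgi, fell by 0.20 (adjusted p = 0.0473). Arf4, a relative of Arf1 with which it shares Golgi functions, rose by 0.21 (adjusted p = 0.0335) and read 11.56, 11.61, 11.61 and 11.55 at 4 days, against 11.45, 11.26, 11.40 and 11.40 at 6 h. The remaining lower genes were Rtf2, a factor of replication fork turnover, at -0.23 (adjusted p = 0.0240), Cdkn2aipnl at -0.22 (adjusted p = 0.0335) and Tpt1, the translationally controlled tumour protein, at -0.19 (adjusted p = 0.0453).

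Several of these genes have more than 1 probe set, and the brightest was used. For Arf1, Iscu, Naa20, Ppp1r14b and Tpt1 all 7 other probe sets differed in the same direction. The other probe set of Naa20 gave -0.44 and that of Ppp1r14b gave -0.24, close to the values used. That of Arf1 gave -0.14, that of Iscu -0.15 and those of Tpt1 -0.15 to -0.16, each smaller than the value used. With the probe sets of a gene averaged, Arf1 (adjusted p = 0.0636), Iscu (0.0762) and Tpt1 (0.0845) did not pass. Whether a probe set reads its gene or a near-identical copy cannot be told from these files.

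Genes higher at 4 days included receptors of neurons. Glra3, the alpha 3 subunit of the inhibitory glycine receptor, read 9.89, 9.96, 9.95 and 9.91 at 4 days, against 9.62, 9.58, 9.73 and 9.57 at 6 h. The groups were far apart relative to their spread, and the difference was 0.31 (95% interval 0.20 to 0.41, adjusted p = 0.0189), or 1.24 times the level at 6 h. Ntsr1, a receptor for the peptide neurotensin, read 9.74, 9.60, 9.82 and 9.65 at 4 days, against 9.44, 9.38, 9.48 and 9.37 at 6 h, and rose by 0.28 (adjusted p = 0.0335). Every array at 4 days read above every array at 6 h for both receptors.

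Enzymes and import proteins of mitochondria were also among the higher genes, while Uqcrh and Ociad2, named above, were lower. The share of mitochondrial genes among those tested was not counted. Pdss2, a subunit of the enzyme that makes the side chain of coenzyme Q, rose by 0.27 (adjusted p = 0.0335), with 9.16, 9.17, 9.29 and 9.30 at 4 days, against 8.93, 8.95, 9.10 and 8.85 at 6 h. Mtx2, which takes part in protein import at the outer membrane, rose by 0.23 (adjusted p = 0.0335), with means of 10.28 ± 0.018 at 4 days and 10.05 ± 0.060 at 6 h (SD, n = 4 each). Bckdhb, a subunit of the complex that breaks down branched-chain amino acids, rose by 0.22 (adjusted p = 0.0473). H2-Ke6, a steroid and fatty acid dehydrogenase of mitochondria, read 9.67, 9.51, 9.65 and 9.69 at 4 days, against 9.36, 9.30, 9.42 and 9.52 at 6 h, a difference of 0.23 (adjusted p = 0.0433); its lowest array at 4 days lay just below its highest at 6 h.

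The other higher genes act in the nucleus, in protein turnover and on tubulin. Dcaf17, a substrate receptor of a cullin ubiquitin ligase, rose by 0.27 (adjusted p = 0.0335), and Ints2, a subunit of the Integrator complex that trims small nuclear RNAs, rose by 0.26 (adjusted p = 0.0453). Leng8 read 11.37, 11.44, 11.65 and 11.53 at 4 days, against 11.23, 11.25, 11.36 and 11.19 at 6 h, and rose by 0.24 (adjusted p = 0.0453). Nucks1, a chromatin protein, read 10.76, 10.75, 10.73 and 10.77 at 4 days, against 10.48, 10.45, 10.64 and 10.55 at 6 h, and rose by 0.22 (adjusted p = 0.0433). Ttll5, which adds glutamate chains to tubulin, rose by 0.18 (adjusted p = 0.0453). In whole tissue, more or fewer cells of a type and more or less RNA per cell cannot be told apart for any of these genes.

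The calls depended on which arrays were fitted. With the 8 arrays alone in the fit, limma called 0 genes (lowest adjusted p = 0.0729, with 1450 genes at an unadjusted p under 0.05), and leaving out 1 of the 8 arrays gave between 0 genes, without DMSO 4 days replicate 3, and 147 genes, without DMSO 6 h replicate 3, with 1 to 7 genes without any other array. Naa20 passed in 19 of 22 alternative settings, and no other called gene passed in more than 16. The log2 difference of every called gene kept its sign in all of them. For the 24 called genes whose groups did not overlap, leaving out arrays could not change it, so the kept signs say little about stability.

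**Figure D2:**
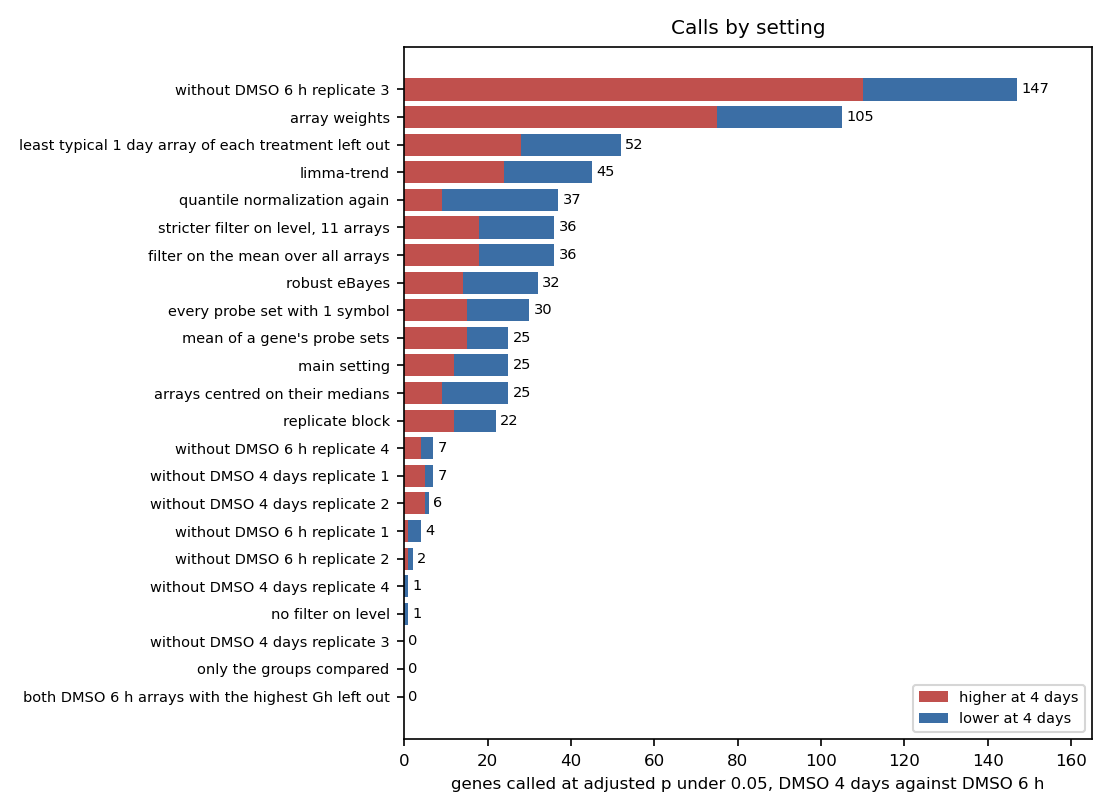
Number of genes called between DMSO 4 days and DMSO 6 h (horizontal axis) in the main setting and in each alternative (vertical axis), split into genes higher and lower at 4 days. The main setting gave 25 genes, and the others gave 0 to 147.

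The promoters of Naa20 and Rtf2, lower at 4 days with both DMSO and celastrol and each with 1 start listed, are shown as examples. Arf1, Cdkn2aipnl, Iscu, Ociad2 and Scrg1 were also called lower in both treatments and are not shown. They were read from RefSeq's mouse build GRCm38.p6, 250 bases before to 50 after the start, both on the plus strand. Capitals mark matches on either strand to 5 short motifs: the ETS motif CCGGAAG, the GC box GGGCGG, the CCAAT box, the E-box CACGTG and the cAMP response element TGACGTCA.
Naa20, chr2:145902991-145903290: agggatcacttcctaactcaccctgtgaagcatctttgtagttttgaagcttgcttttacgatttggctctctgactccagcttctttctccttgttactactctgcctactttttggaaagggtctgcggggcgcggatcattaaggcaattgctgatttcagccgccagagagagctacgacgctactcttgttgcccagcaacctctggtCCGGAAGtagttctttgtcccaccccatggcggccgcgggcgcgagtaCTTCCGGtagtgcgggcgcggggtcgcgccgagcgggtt
Rtf2, chr2:172440328-172440627: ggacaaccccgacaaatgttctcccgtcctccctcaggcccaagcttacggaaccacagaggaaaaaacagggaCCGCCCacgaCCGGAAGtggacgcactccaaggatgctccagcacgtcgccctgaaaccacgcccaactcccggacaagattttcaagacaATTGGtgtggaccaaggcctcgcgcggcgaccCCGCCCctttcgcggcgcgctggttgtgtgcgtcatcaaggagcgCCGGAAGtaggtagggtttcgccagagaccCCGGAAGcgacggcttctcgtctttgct

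The Naa20 promoter holds the ETS motif at -37 and, on the opposite strand, at 12, counted from the start as 1. The Rtf2 promoter holds it at -166, -8 and 23. Of the 10 lower genes whose promoters were read, 3 hold this motif, including Naa20 and Rtf2. The examples are therefore not typical of the lower genes. The table listed 22 of the 25 called genes. The ETS motif stood in 28.6% of the 14 promoters of higher genes, in 23.1% of the 13 promoters of lower genes and in 8.86% of the 32851 promoters of the table, or 16.4% of those of tested genes. The E-box, to which clock proteins bind, and the cAMP response element, to which CREB binds, stood in 0 promoters of called genes, in 9.92% and 3.1% of those of tested genes and in 7.15% and 1.79% of all promoters. The CCAAT box stood in 64.3% of the promoters of higher genes, 46.2% of those of lower genes, 36.4% of those of tested genes and 37.4% of all. For the GC box these shares were 78.6%, 53.8%, 63.3% and 35.7%. A match is a description of the sequence only.

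The same interval in celastrol-treated mice gave the same direction for all 25 genes. Celastrol at 4 days against celastrol at 6 h called 151 of 9880 genes (1.53%), 81 higher and 70 lower. They include 9 of the 25 genes called with DMSO, all in the same direction: Arf1, Cdkn2aipnl, Iscu, Leng8, Naa20, Nucks1, Ociad2, Rtf2 and Scrg1. These are 36% of the genes called with DMSO and 5.96% of those called with celastrol. Both comparisons used 1 shared variance per gene, so their calls are not independent of each other. A further 10 of the 25, making 19, had an unadjusted p under 0.05 with celastrol, as had 1778 of all 9880 tested genes. Of the 151 genes called with celastrol, 140 had the same sign with DMSO, as had 7025 of all tested genes, and the differences of the 2 treatments correlated across genes at r = 0.51, where genes are not independent of each other.

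Naa20 read 10.57, 10.37 and 10.42 with celastrol at 4 days, against 10.90, 10.82, 10.98 and 10.88 with celastrol at 6 h, a difference of -0.44 (adjusted p = 0.00313), close to the -0.43 with DMSO. Arf1 had the lowest p with celastrol, at 13.32, 13.29 and 13.27 at 4 days, against 13.70, 13.74, 13.66 and 13.68 at 6 h, a difference of -0.41 (adjusted p = 3.21e-04). Leng8 rose by 0.24 with DMSO and by 0.38 with celastrol (adjusted p = 0.00167). Arf4, Dcaf17, Ntsr1, Pdss2, Ppp1r14b and Uqcrh had an unadjusted p over 0.05 with celastrol in limma. Ntsr1 differed least among them, by 0.02 (adjusted p = 0.899). It read 9.42, 9.49 and 9.63 with celastrol at 4 days, against 9.49, 9.37, 9.57 and 9.54 at 6 h.

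**Figure D3:**
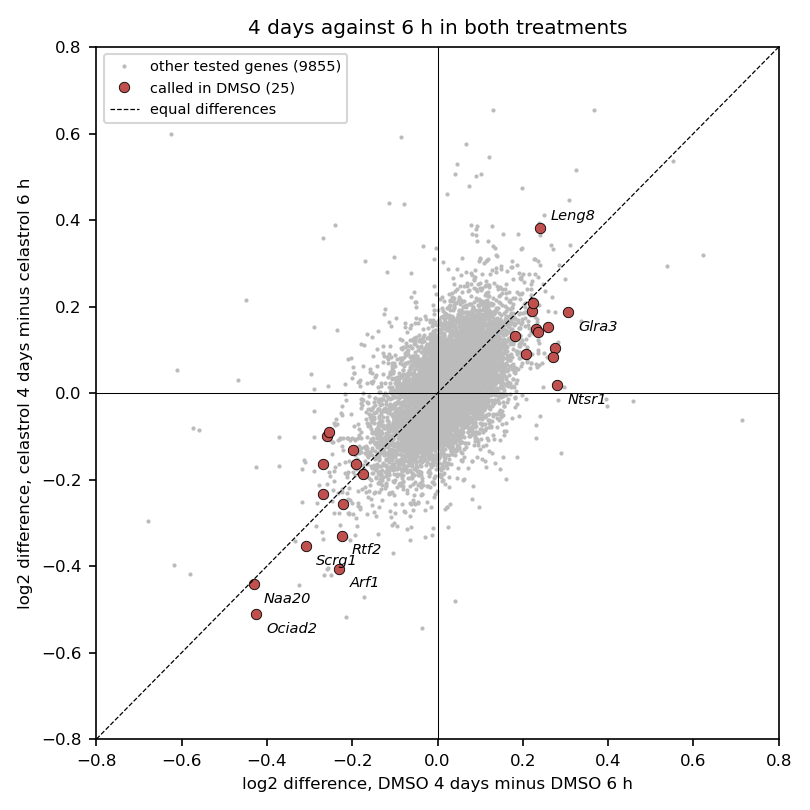
Log2 difference of each tested gene between 4 days and 6 h with DMSO (horizontal axis) and with celastrol (vertical axis); large points are the 25 genes called with DMSO, small points the other tested genes, of which 4 lie outside the axes. All 25 lie at lower left or upper right of the point where both differences are 0, and Ntsr1 lies nearest the horizontal axis.

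No gene passed the test of whether the difference between 4 days and 6 h itself differed between DMSO and celastrol. In limma 0 of 9880 genes passed, the lowest adjusted p was 0.280 and 334 had an unadjusted p under 0.05. Among the 25 called genes, 5 had an unadjusted p under 0.05 in that test (Arf1, Dcaf17, Ntsr1, Pdss2 and Uqcrh). The gene with the lowest p was Ddit4, an inhibitor of growth signalling induced by stress and glucocorticoids: it read 8.95, 9.11, 9.35 and 9.16 with DMSO at 4 days, against 9.47, 9.25, 9.51 and 9.31 with DMSO at 6 h, and 9.60, 9.52 and 9.66 with celastrol at 4 days, against 9.05, 9.21, 9.26 and 9.31 with celastrol at 6 h. Its difference was -0.24 with DMSO (adjusted p = 0.193) and 0.39 with celastrol (adjusted p = 0.0295). Without DMSO 4 days replicate 3 it passed the test of the difference (adjusted p = 0.0462), as the sole gene to do so in any setting. Nfkbia, the inhibitor that holds NF-kB in the cytoplasm, followed with -0.11 with DMSO and 0.44 with celastrol, then Mtmr6, a phosphoinositide phosphatase, with 0.06 and -0.20, and Idh1, the cytosolic isocitrate dehydrogenase, with -0.04 and -0.54. None of these 3 was called with DMSO.

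The DMSO arrays at 1 day lay between the other times for most called genes. For 22 of the 25 the mean at 1 day was between the means at 4 days and 6 h, nearer to 4 days in 11. Naa20 averaged 10.86 at 6 h, 10.67 at 1 day and 10.43 at 4 days. For Glra3 the means in time order were 9.62, 9.84 and 9.93. Means outside this pattern belonged to Arf1, with 13.61, 13.63 and 13.38 in time order, Leng8, with 11.26, 11.21 and 11.50, and Mgat2, with 9.10, 9.19 and 8.90. The genes were chosen by their values at 4 days and 6 h, so a mean at 1 day between these is not a separate result.

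**Figure D4:**
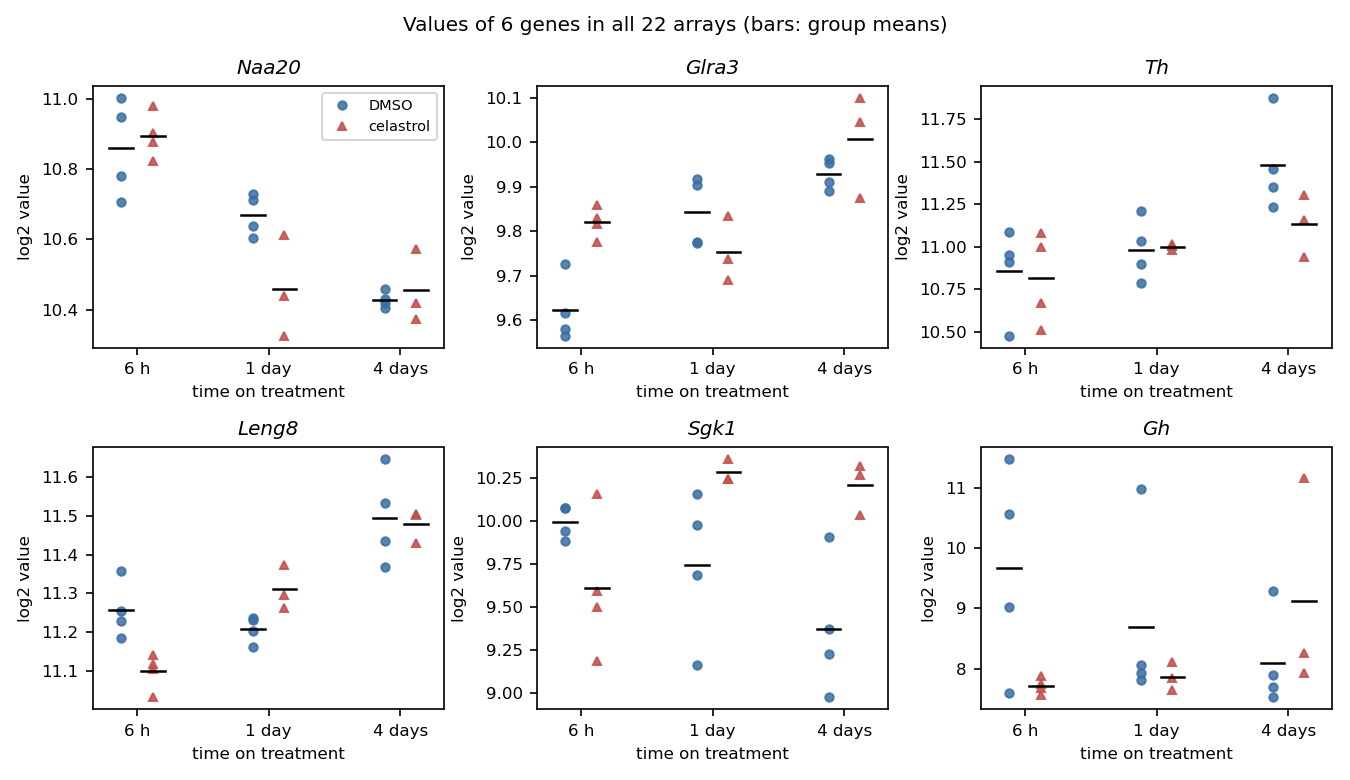
Log2 values of Naa20, Glra3, Th, Leng8, Sgk1 and Gh in all 22 arrays by time on treatment, with DMSO as circles, celastrol as triangles and group means as bars. Naa20 is lower and Leng8 higher at 4 days than at 6 h in both treatments. The means of Sgk1 and Gh are lower at 4 days with DMSO and higher at 4 days with celastrol, with neither gene called in either treatment. The mean of Gh with celastrol at 4 days rests mostly on replicate 2, with arrays at 8.26, 11.16 and 7.92.

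The called genes included 3 members of the lists of response genes and cell type markers. Of 37 lists with a tested member, 34 held 0 called genes, and the 3 others held 1 each: Glra3 among receptor subunits, Gsta4 among NRF2 targets and Uqcrh among oxidative phosphorylation subunits. Called genes were 0.253% of all tested genes. At that share lists of these sizes would mostly hold 0, so 0 calls in a list is not a result about its members.

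Genes that follow handling and stress held 0 calls, where 0.253% of all tested genes were called. With so low a share, 0 calls is not a result about handling or stress. Of the 21 tested glucocorticoid-induced genes 5 were above 0 and 16 below, with a median of -0.06 against 0.03 over all tested genes. Sgk1, a kinase induced by glucocorticoids and by salt, read 9.23, 9.37, 9.90 and 8.97 at 4 days, against 9.94, 10.07, 10.07 and 9.88 at 6 h. The groups overlapped through replicate 3 at 4 days, and the difference was -0.62 (95% interval -1.02 to -0.23, adjusted p = 0.168). With celastrol the difference of Sgk1 was 0.60 (adjusted p = 0.135), and the test between treatments gave -1.22 (adjusted p = 0.474). Fkbp5, a chaperone of the glucocorticoid receptor that its hormone induces, averaged 8.68 ± 0.177 at 4 days and 8.67 ± 0.120 at 6 h (SD, n = 4 each).

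Of the 14 tested immediate early genes 5 were above 0 and 9 below, with a median of -0.05. Jun, a subunit of the transcription factor AP-1, read 9.84, 9.75, 9.86 and 9.77 at 4 days, against 9.55, 9.56, 9.65 and 9.61 at 6 h. The groups did not overlap, and the difference of 0.22 fell just short of the threshold (adjusted p = 0.0553); it passed in 6 of 22 alternative settings. Nr4a2, an orphan nuclear receptor of dopamine neurons, differed by 0.28 (adjusted p = 0.190) and Egr1 by -0.07 (adjusted p = 0.690). Fos was too dim to be tested, with 7.25, 7.0005, 7.25 and 7.31 at 4 days, against 7.43, 7.01, 7.43 and 7.57 at 6 h.

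Clock genes held 0 calls with DMSO, where 0.253% of all tested genes were called, with a median of 0.01 over 21 tested genes, 11 above 0 and 10 below. Per1, a repressor of the clock, averaged 10.08 ± 0.136 at 4 days and 10.13 ± 0.073 at 6 h, and Dbp, a clock output that swings widely over the day, 10.74 ± 0.110 and 10.70 ± 0.028 (SD, n = 4 each). Per2 differed by 0.07, Arntl by 0.01 and Nr1d1 by -0.03. The members with the lowest p were Per3, at 0.13 (adjusted p = 0.220), and the repressor Cry1, at 0.20 (adjusted p = 0.220), each with groups that did not overlap. With celastrol 2 clock genes were called lower, where 1.53% of all tested genes were called. Nr1d2 differed by -0.17 with celastrol (adjusted p = 0.0181) and by -0.03 with DMSO, where its groups did not overlap. Bhlhe40 differed by -0.27 with celastrol (adjusted p = 0.0420) and by 0.02 with DMSO.

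The 21 tested feeding genes (median -0.02) and the 19 releasing and magnocellular peptide genes (median -0.06) held 0 called genes, against 0.253% of all tested genes. Th, tyrosine hydroxylase, which makes the precursor of dopamine, came close to the threshold. It read 11.46, 11.23, 11.87 and 11.35 at 4 days, against 10.48, 10.91, 10.95 and 11.09 at 6 h. Every value at 4 days was above every value at 6 h, and the difference was 0.62 (95% interval 0.33 to 0.91), or 1.54 times the level at 6 h, but it did not pass (adjusted p = 0.0553; it passed in 6 of 22 alternative settings). With celastrol Th differed by 0.32 (adjusted p = 0.269). The dopamine receptor gene Drd2, listed among markers of neighbouring brain regions, read 10.76, 10.64, 10.90 and 10.70 at 4 days, against 10.47, 10.39, 10.57 and 10.58 at 6 h, a difference of 0.25 (adjusted p = 0.0749), against 0.01 with celastrol. Penk, which encodes enkephalins, differed by -0.13 (adjusted p = 0.142).

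Among feeding genes, Npy, the appetite peptide of the arcuate nucleus, averaged 10.78 ± 0.216 at 4 days and 10.65 ± 0.247 at 6 h, and Pomc, its satiety counterpart, 8.50 ± 0.142 and 8.81 ± 0.248 (SD, n = 4 each). The difference of Pomc was -0.31 (adjusted p = 0.260), and it lay between -0.37 and -0.16 in the alternatives. Pomc is also on the pituitary list. Its highest value at 6 h, 9.18, was in replicate 4, the array with the highest Gh. The part of pituitary tissue in this difference was not tested. Hcrtr1, an orexin receptor, differed by 0.15 (adjusted p = 0.235) and Insr, the insulin receptor, by 0.11 (adjusted p = 0.249). Trh, the releasing hormone of the thyroid axis, differed by -0.06, Oxt by 0.20 (adjusted p = 0.459), Avp by -0.10, Hcrt by 0.07 and Pmch by -0.02. Crh was too dim to be tested, at 7.05 ± 0.061 at 4 days and 7.03 ± 0.028 at 6 h (SD, n = 4 each).

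Genes of neuronal signalling held 1 call, Glra3, where 0.253% of all tested genes were called. Their medians were near that of all tested genes, 0.03. Of all tested genes 66.1% were above 0. Of 30 tested glutamate, GABA and glycine receptor subunits 22 were above 0 (73.3%, median 0.03), of 33 potassium channel genes 27 (81.8%, median 0.05), and of 25 synaptic vesicle genes 17 (68%, median 0.04). These genes are long, with median spans of 224.1, 152.3 and 60.41 kb against 27.61 kb over all tested genes. Kcnd3, a channel of transient potassium current, read 10.62, 10.61, 10.71 and 10.56 at 4 days, against 10.43, 10.40, 10.48 and 10.51 at 6 h, a difference of 0.17 (adjusted p = 0.103). Sv2c, a synaptic vesicle protein, differed by 0.24 (adjusted p = 0.123). The splicing factors, with 20 of 26 above 0 and a median of 0.06, were led by Luc7l at 0.17 (adjusted p = 0.148) and Srsf1 at 0.18 (adjusted p = 0.183).

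Genes of energy metabolism and protein making held 1 call, where 0.253% of all tested genes were called. Of 51 tested oxidative phosphorylation subunits 1 was called (Uqcrh), and 23 were above 0 and 28 below, with a median of -0.01. Of 52 ribosomal protein genes (median 0.01) 0 were called; Rpl10 differed by 0.13 (adjusted p = 0.123) and Rpl23 by -0.18 (adjusted p = 0.113). The medians were 0.04 for 31 proteasome subunits, 0.01 for 26 sterol and fatty acid synthesis genes, 0.02 for 21 hypoxia and glycolysis genes and 0.03 for 19 fasting genes. Fabp7, a lipid-binding protein of glia on the fasting list, read 12.81, 12.87, 12.60 and 12.70 at 4 days, against 13.08, 13.18, 12.95 and 12.94 at 6 h, a difference of -0.29 (adjusted p = 0.143). Protein-folding lists held 0 calls: the median was -0.02 for 20 heat shock genes and 0.00 for 24 unfolded protein response genes. The 9 acute-phase, 8 interferon and 10 osmotic genes held 0 called members, with medians of 0.01, -0.06 and 0.03. The 4 cold-inducible RNA-binding protein genes were all above 0 (median 0.11), the 14 NRF2 targets had a median of 0.01 and the 6 histone genes one of -0.01. Of the mitochondrially encoded genes 0 were on the array under 1 symbol.

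**Figure D5:**
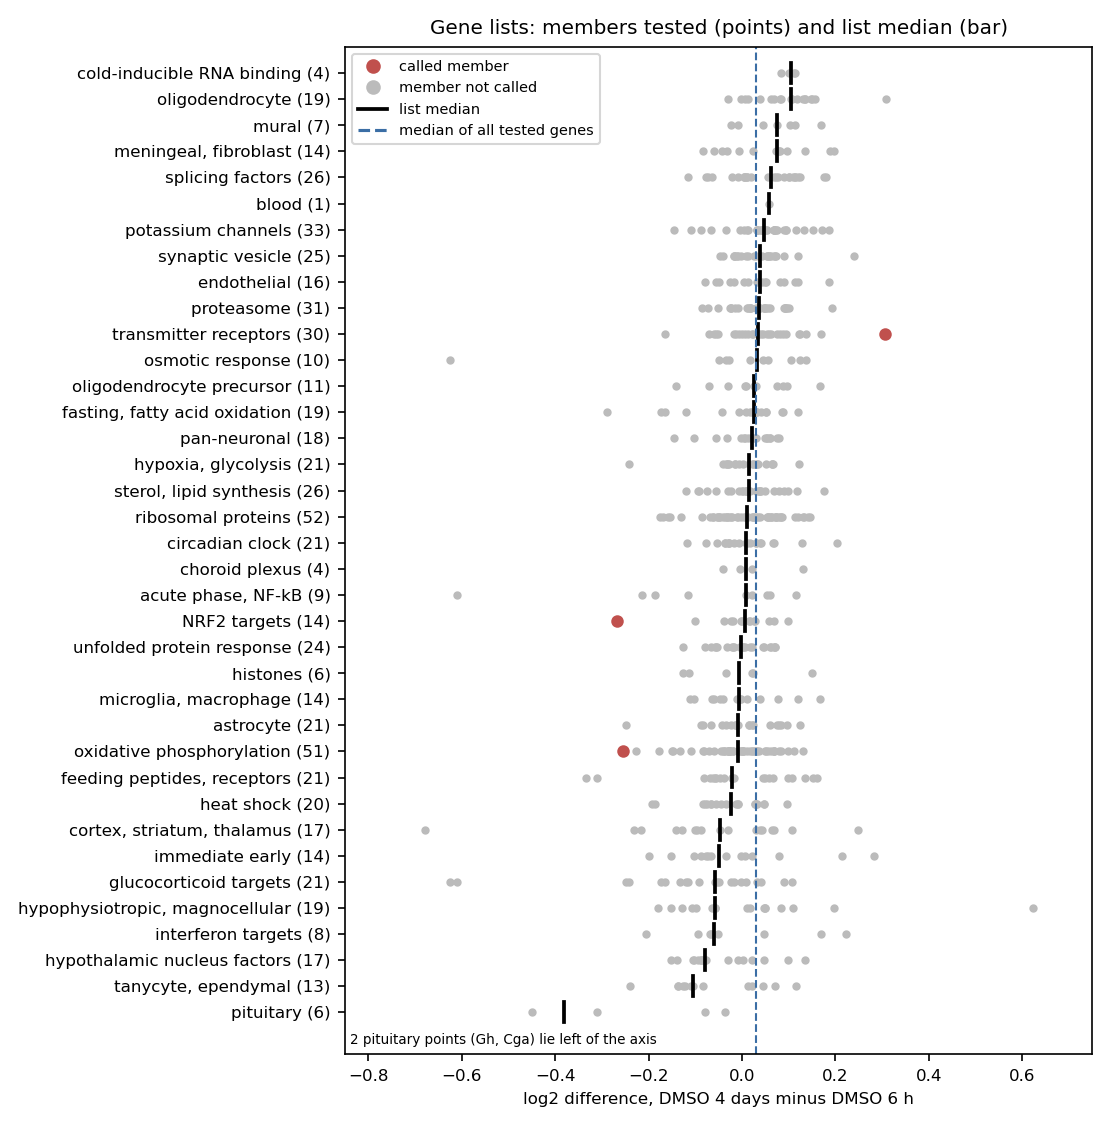
Log2 difference between DMSO 4 days and DMSO 6 h (horizontal axis) of the tested members of each list (points; the number tested stands beside the list's name), with the list's median as a bar and the median of all tested genes, 0.03, as a dashed line. Larger points are Glra3, Gsta4 and Uqcrh, the called members; the pituitary list has the lowest median, and its members Gh and Cga lie left of the axis.

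Markers of cell types held 0 called genes in all 14 lists, where 0.253% of all tested genes were called. With so low a share, 0 calls is not a result about the cell types. Of all tested genes 66.1% were above 0. Myelinating oligodendrocyte markers had 17 of 19 members above 0 (89.5%) and a median of 0.10. In limma 7 of the 19 had an unadjusted p under 0.05, all higher, as had 1135 of all 9880 tested genes. Opalin, a myelin membrane protein, read 9.79, 9.89, 9.70 and 9.94 at 4 days, against 9.55, 9.62, 9.39 and 9.53 at 6 h, a difference of 0.31 (adjusted p = 0.108), and with celastrol it rose by 0.45 (adjusted p = 0.0135). Mag, an adhesion protein of myelin, differed by 0.13 with DMSO (adjusted p = 0.174) and by 0.01 with celastrol (adjusted p = 0.901). The median of the 19 markers was 0.02 with celastrol. The mean log2 value over the 19 markers was 11.06 to 11.17 at 4 days and 11.01 to 11.06 at 6 h. Tanycyte and ependymal markers had 5 of 13 above 0 and a median of -0.11, and hypothalamic transcription factors 5 of 17 and -0.08. Of the 21 tested astrocyte markers 3 had an unadjusted p under 0.05, against 1507 of all 9880 tested genes. These 3 markers differed in direction. Gjb6, a connexin of astrocytes, read 9.98, 9.97, 9.96 and 9.91 at 4 days, against 10.25, 10.32, 10.14 and 10.10 at 6 h, a difference of -0.25 (adjusted p = 0.0639), and it fell with celastrol by 0.42 (adjusted p = 0.00175). Aqp4, the water channel of astrocyte endfeet, differed by 0.12 (adjusted p = 0.275) and Hepacam, an astrocyte adhesion protein, by 0.10 (adjusted p = 0.254). The medians of the pan-neuronal, astrocyte and microglial lists were 0.02, -0.01 and -0.01, that of the markers of neighbouring brain regions -0.05, and those of the oligodendrocyte precursor, endothelial, mural and meningeal lists 0.03, 0.04, 0.08 and 0.08.

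Pituitary markers varied widely between arrays of 1 group. Gh, growth hormone, read 7.89, 7.52, 9.28 and 7.69 at 4 days, against 7.60, 10.57, 9.02 and 11.48 at 6 h, so replicates 2 and 4 at 6 h stood highest. Prl, prolactin, too dim to be tested, read 6.28, 6.21, 7.14 and 6.32 at 4 days, against 6.60, 7.15, 7.46 and 10.997 at 6 h. Outside the 8 arrays, DMSO 1 day replicate 3 read 10.98 for Gh and 8.46 for Prl. Celastrol 4 days replicate 2 read 11.16 for Gh and 10.33 for Prl. The 6 tested pituitary markers were all below 0, with a median of -0.38, and their mean log2 value was 8.78 to 9.42 at 4 days and 8.85 to 10.64 at 6 h. The difference of Gh was -1.57 (95% interval -3.11 to -0.03, adjusted p = 0.315). Without the 2 arrays at 6 h with the highest Gh, a setting chosen after seeing the data, limma called 0 genes, with 760 at an unadjusted p under 0.05 and a lowest adjusted p of 0.169. The differences of the 25 called genes all kept their sign there and were 0.742 to 1.16 times those with all arrays (median 0.869), such as -0.43 for Naa20 and 0.26 for Glra3. For the 24 called genes whose groups did not overlap, leaving out arrays could not change the sign. The genes were also called with these arrays, so the kept signs are not a separate result. Choroid plexus and blood markers were mostly dim: 4 of 16 choroid plexus genes and 1 of 13 blood genes were bright enough to be tested, and Ttr, the choroid plexus marker transthyretin, averaged 7.39 ± 0.197 at 4 days and 7.38 ± 0.060 at 6 h (SD, n = 4 each).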

How the data were processed

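Per the labels, total RNA of the hypothalamus was isolated by Trizol and a column cleanup, amplified and hybridised to Affymetrix arrays. The authors deposited log2 values made with RMA, per the submitters' processing notes; its version was not named there. RMA subtracts background, gives the probes of all arrays 1 distribution and then combines the probes of a set. The range, 3.83 to 15.2, and the array medians are those of log2 intensities. RMA compresses small changes and forces arrays to a common distribution, so a shift of all genes cannot be seen. No 2 arrays held identical values (0 pairs).

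Of 23492 probe sets, 20228 had 1 gene symbol in the platform's annotation, 1399 had several and 1865 had none. They name 18704 genes; for 809 with more than 1 probe set the one with the highest mean was kept. Genes above the array median in at least 3 of the 22 arrays were tested (9880; 8824 were dim). limma 3.58.1 in R 4.3.3 fitted 6 group means to all 22 arrays (16 residual and 6.06 prior degrees of freedom), so p-values use the spread of all groups; they were two-sided, with Benjamini-Hochberg adjustment over all tested genes. The number of arrays limits the precision. The steps were tested on simulated data. Figures used matplotlib 3.10.9 in Python 3.11.15.

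Genes were named by a rule: up to 12 each way with the largest difference among called genes whose groups did not overlap, up to 4 called members of each of 38 gene lists or, with none, up to 2 with the lowest p, a fixed set of genes always given, and those with the lowest p in the test of DMSO against celastrol. Iscu, H2-Ke6, Nr1d2 and Bhlhe40, outside it, were named after their values were seen, as were Cga, named in a plot, the 5 motifs and both promoters. The genes, lists and alternatives were chosen with earlier results of these data known. Same-numbered arrays at 4 days and 6 h did not deviate together (correlations -0.05 to 0.12), so numbers were not taken as pairs. Alternatives changed the filter, the probe set rule, the normalization, the variance model, the arrays fitted and the replicate block; 2 that leave out arrays chosen by their values were added after seeing the data.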

Additional observations from a re-analysis of the deposited data

Results flagged for a closer look

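In 264 groups of 4 arrays, 16 times a named gene had 1 array farther from the others than Dixon's 95% limit allows; chance flags about 1 in 20 groups. Called genes account for 6 of these 16. The 264 groups do not take in every group of 4 arrays for every named gene. Gh, for example, is not among the 16, though it read 10.98 in DMSO 1 day replicate 3, against 7.82, 7.93 and 8.06 in its group. Cdkn2aipnl read 10.88 in DMSO 1 day replicate 1, above the other 3, and Ociad2 read 10.23 in the same array, below them. Rtf2 read 10.33 and Uqcrh 12.11 in DMSO 6 h replicate 2, each above the others of its group. Scrg1 read 10.48 in DMSO 4 days replicate 2, above its group, and Dcaf17 read 8.96 in DMSO 4 days replicate 1, below it. Rpl23, not called, read 12.02 in DMSO 6 h replicate 4, above its group.

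Of the genes of the lists, Hcrtr1 read 8.63 in DMSO 4 days replicate 1, Pdgfrb 9.74 and Siglech 8.56 in DMSO 4 days replicate 2, and Sv2c 10.35 in DMSO 6 h replicate 1, each below its group. Kcnj13 read 8.89 in DMSO 4 days replicate 4 and Prl 7.14 in DMSO 4 days replicate 3, each above its group. Ifit3 read 9.11 in DMSO 6 h replicate 2, Luc7l 9.79 in DMSO 6 h replicate 3 and Slc4a2 9.08 in DMSO 6 h replicate 1, each also above its group.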

How the results depend on the processing

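The 25 genes called between DMSO 4 days and DMSO 6 h became 1 with no filter on level, 45 with limma-trend, 105 with array weights, 0 with the groups compared alone, 0 without both DMSO 6 h arrays with the highest Gh, 52 without the least typical 1 day array of each treatment, and 0 to 147 without 1 of the 8 arrays. With the replicate block 22 passed, 19 of them among the 25. The 151 genes called between the celastrol groups became 54 with no filter, 559 with array weights, 100 with the groups compared alone, 318 without the least typical 1 day arrays, and 15 to 124 without 1 array; the replicate block gave 131. The test of the difference between treatments gave 0 to 1 genes without 1 array and 0 with the replicate block. With no filter 18704 genes were tested, and the fit of 8 arrays has fewer degrees of freedom; for the other settings the cause was not tested. Of the values of named genes under alternatives, 2023 kept their side of the threshold, 243 lost it, 29 gained it and 0 called values changed sign. Most of these values belong to genes that were not called, and all 243 losses fell on the 25 called genes. For the 24 called genes whose groups did not overlap, leaving out arrays could not change the sign. Each called gene passed in 9 to 19 of 22 alternatives. Counts of called list members were the same in 755 cases and moved in 59. Signal near background limited what could be tested, since 8824 genes were dim.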
